A study of Mus musculus with 5 samples.

Results

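The genes encoding the proteins of the mitochondrial ribosome were followed in hematopoietic stem cells (HSCs) of WT and Atxn1L null mice. They were taken by name, as every gene whose symbol begins with Mrpl or Mrps and a digit and that has a probe set annotated to it alone. That rule used no measured value, although the group was chosen with earlier results of these data known. The rule gave 76 genes of the 18193 with a probe set of their own, through 156 probe sets, and each gene was read by the probe set with its highest mean over the arrays. Expression had been measured on 5 Affymetrix mouse arrays, 3 with RNA of WT HSCs and 2 with RNA of Atxn1L null HSCs. All mice were on a C57Bl/6 background and aged 6 to 8 weeks by the labels, none was treated, and the null mice differed by a knock-out allele of Atxn1L, a relative of the ataxia gene Ataxin-1 that partners the repressor Capicua. The labels name no Cre and no restriction of the allele to blood cells. HSCs were sorted from bone marrow as lineage-negative, Sca-1+, c-Kit+ and CD150+ cells of the dye-excluding side population. The cells on each chip were a pool from a number of mice that the text does not state, and the RNA was amplified before labelling.

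Mitochondria translate a small set of mRNAs from their own genome, all of them for subunits of the respiratory chain and ATP synthase, on a ribosome that descends from that of bacteria. Its rRNAs are transcribed in the organelle, while all of its proteins are encoded in the nucleus, made in the cytosol and imported. A large subunit, which joins amino acids, and a small subunit, which reads the mRNA, both carry proteins inherited from bacteria and proteins found in mitochondria alone. HSCs are held to rely less on respiration while quiescent and to draw on mitochondria when they enter cycle. Of the 76 genes, 49 encode proteins of the large subunit, among them Mrps18a and Mrps30 in spite of their names, and 26 proteins of the small subunit. The last, Mrps36, is no longer counted as ribosomal and is known as a component of the 2-oxoglutarate dehydrogenase complex.

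Promoter sequences are shown for 7 of the genes to which the results below return. They come from RefSeq windows on the GRCm38.p6 build, which were matched by Entrez gene identifier for 67 of the 76 genes. Each line gives the 120 bases before the annotated start, 5′ to 3′ on the strand of the gene. Capitals mark the letters of motifs of factors known to drive nuclear genes for mitochondrial proteins or many housekeeping genes, read on either strand: CCGGAAG for Gabpa, an Ets factor, AAGATGGC for Yy1 and GGGCGG for Sp1. The first group holds the genes that were higher in null HSCs or came closest to it.
Mrps9 (chr1:42851113-42851232, plus strand): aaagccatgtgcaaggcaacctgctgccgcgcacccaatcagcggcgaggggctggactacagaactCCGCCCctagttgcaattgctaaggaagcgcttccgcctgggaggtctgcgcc
Mrps14 (chr1:160195095-160195214, plus strand): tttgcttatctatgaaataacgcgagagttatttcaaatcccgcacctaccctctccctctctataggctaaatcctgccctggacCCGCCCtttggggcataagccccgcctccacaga
Mrps22 (chr9:98601680-98601799, minus strand): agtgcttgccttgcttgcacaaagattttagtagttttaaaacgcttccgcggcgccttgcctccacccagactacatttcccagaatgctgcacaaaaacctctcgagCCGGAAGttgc
Mrpl40 (chr16:18876638-18876757, minus strand): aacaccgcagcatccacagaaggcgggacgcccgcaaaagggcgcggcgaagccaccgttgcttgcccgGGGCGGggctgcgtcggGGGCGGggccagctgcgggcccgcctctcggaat
The next line holds the gene with the largest difference in the lower direction.
Mrpl27 (chr11:94653671-94653790, plus strand): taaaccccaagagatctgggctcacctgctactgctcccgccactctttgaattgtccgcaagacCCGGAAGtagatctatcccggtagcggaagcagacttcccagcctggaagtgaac
The last pair is shown for its position, since Mrps11 and Mrpl46 start back to back and their stretches share 41 bases, read from opposite strands.
Mrps11 (chr7:78783011-78783130, plus strand): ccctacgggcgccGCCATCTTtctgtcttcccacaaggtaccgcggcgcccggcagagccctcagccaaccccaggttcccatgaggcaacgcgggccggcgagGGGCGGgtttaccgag
Mrpl46 (chr7:78783090-78783209, minus strand): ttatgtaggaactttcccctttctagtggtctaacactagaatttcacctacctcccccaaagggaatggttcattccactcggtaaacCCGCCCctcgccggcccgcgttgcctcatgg

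Across the whole windows, from 250 bases before to 50 after the start, the Gabpa letters were found in 37.3% of the 67 genes with a window, against 9.93% of the 27025 genes with windows and 22.4% of those whose mean reached 5 in either genotype, called the brighter genes here. The Yy1 letters were found in 17.9% of the 67, 3.19% of all and 6.18% of the brighter genes, and GCGCATGC, the core of the Nrf1 site, in 11.9%, 3.05% and 6.58%. The Sp1 letters were in 50.7% of the 67 genes, in 38.2% of all and in 71.7% of the brighter genes. The octamers TGAATGAA and TCAATGAA, which Capicua is known to bind, were in none of the 67 genes, in 2.35% of all and in 1.4% of the brighter genes. This says only that these letters are not in these windows. The motifs can overlap, and a match describes letters, not binding. The members with the Gabpa letters had a median difference between null and WT of 0.06 on the log2 scale and those without had 0.05, and the corresponding medians were -0.01 and 0.08 for Yy1, -0.03 and 0.06 for Nrf1 and 0.04 and 0.06 for Sp1. None of the 3 genes that were higher in null HSCs carried the Yy1 or Nrf1 letters, Mrps22 carried those of Gabpa at -11 from its start, and all 3 carried those of Sp1.

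The deposited values are GCRMA values on the log2 scale, on which a difference of 1 is a doubling. The array medians over all probe sets ran from 3.03 to 3.07. Atxn1l, the gene targeted in the null mice, read 6.80, 6.69 and 4.98 on the WT arrays and 3.08 and 3.99 on the null arrays. Of 13 markers of HSCs listed for the check, 11 had a probe set, 10 of these read a mean of at least 5 and none differed past the criterion used below. Abcg2, Tal1 and Tek were higher and the others of the 11 lower in null HSCs, with differences from -0.46 for Meis1 to 0.25 for Tal1. The mean log2 value of the 11 was 9.31, 9.47 and 9.38 on the WT arrays and 9.32 and 9.22 on the null arrays. Slamf1, which encodes the CD150 of the sort, read 3.92 in WT and 3.89 in null HSCs. Of 25 markers of other blood, endothelial and stromal cells, 21 had a probe set and 8 read at least 5, and none of the 21 passed either. Mpo and Pf4 read highest, at 11.48 and 10.99 in WT HSCs and 12.09 and 10.95 in null HSCs. Cd3e, Cd79a, Hba-a1 and Cdh5 were among those under 3. The differences of the 8 went both ways, with 0.81 for Pdgfrb, 0.61 for Mpo, 0.42 for Csf1r, 0.16 for Nkg7 and 0.07 for Itga2b, but -0.04 for Pf4, -0.65 for Cd14 and -0.69 for Mcpt8. The mean log2 value of the 21 ran from 4.83 to 4.94 in WT and from 4.88 to 4.95 in null HSCs. In the control probe sets for Gapdh, the 3′ end exceeded the 5′ end by 5.94 ± 0.07 on the WT arrays (SD, n = 3) and 7.27 ± 0.09 on the null arrays (SD, n = 2), and in those for beta-actin by 6.57 ± 0.15 and 7.35 ± 0.10, so the null RNA was read more strongly toward the 3′ end. The part of this in the differences below was not tested. In RNA of pooled cells, fewer cells that express a gene and less RNA of it per cell cannot be told apart.

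The mitochondrial ribosome was broadly detected in HSCs. The mean reached 5 in either genotype for 71 of the 76 genes, and for 7236 of all 18193 genes. The median over the 76 was 7.89 in WT and 7.88 in null HSCs. These values also depend on the probes, so they do not order the genes by transcript number. Of the large subunit, Mrpl52, Mrpl51, Mrpl24 and Mrpl39 gave the highest values, between 10.70 and 11.98 as genotype means, and of the small subunit Mrps6, Mrps14, Mrps24 and Mrps33. Only 5 genes stayed under a mean of 5 in both genotypes, Mrpl10, Mrpl32, Mrpl37, Mrpl55 and Mrps27, and the probe set of Mrps27 read 4.19 on every array. The SD over the 3 WT arrays had a median of 0.19 over the brighter genes and 0.05 over all genes. Over the 76 genes its median was 0.12, and it was 0.36 at the most, for Mrpl36. In 20 genes it was under 0.05, and in 5 genes at least 3 arrays lay within 0.001 of each other, as for Mrpl35 at 7.85.

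To ask which of these genes differed with Atxn1L, null HSCs were compared with WT HSCs in a linear model over all 45037 probe sets. Passing meant a 1.5-fold difference or more together with an unadjusted limma p no higher than 0.05. Mrps9, Mrps14 and Mrps22 passed and were higher in null HSCs, all of them genes of the small subunit, and 0 of the 76 passed as lower. Of all 18193 genes, 1.57% passed as higher and 1.43% as lower, and of the 7236 brighter genes 3.496% and 3.441%. All 3 passing members counted as brighter, which makes 4.23% of the 71 brighter members, close to the share of brighter genes. Mrps22 counted only through its null mean of 5.17, since its WT mean was 4.49. This share therefore rests in part on the group where it was higher. After Benjamini-Hochberg adjustment over all probe sets, 0 of the 76 genes had an adjusted p under 0.05 in limma, and 10 had an unadjusted p under that value, of which 8 were higher and 2 lower. The same unadjusted level was met in the higher direction by 4.4% and in the lower direction by 3.03% of all genes. The corresponding shares were 9.09% and 7.13% of the brighter genes, beside 11.3% and 2.82% of the brighter members. Mrps22 and Mrps35, both among the 8, counted as brighter only through their null means, of 5.17 and 5.06. The 11.3% therefore also rests in part on the group where they were higher. With 3 arrays against 2, an exact permutation test of a single gene cannot give a two-sided p under 0.1.

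**Figure D1:**
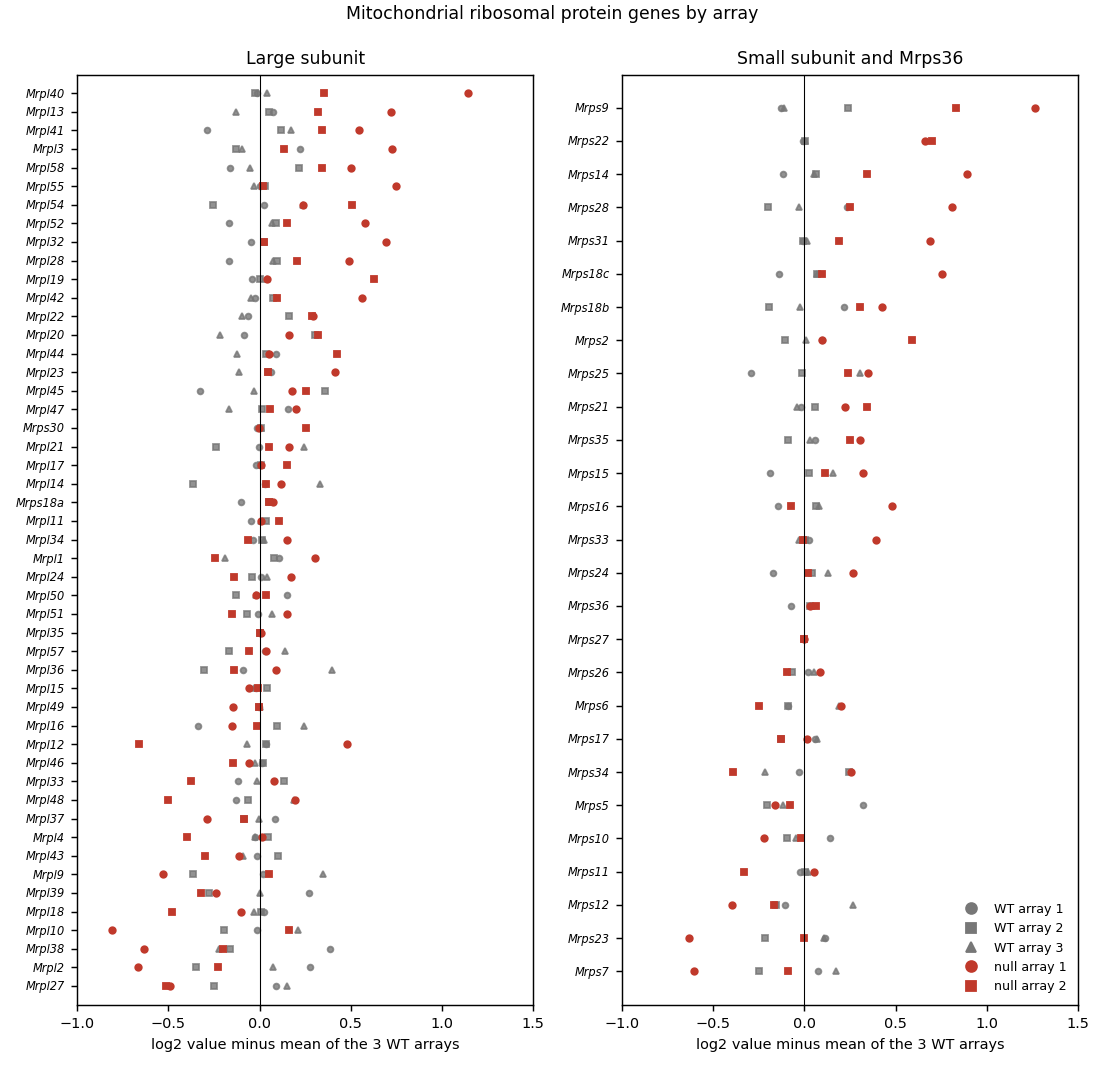
Each row is a gene, and each point is the log2 value of 1 array minus the mean of the 3 WT arrays for that gene, with WT arrays in gray and Atxn1L null arrays in red. Mrps9 and Mrps22 have both null arrays far to the right of the WT arrays, whereas for most genes the red circle of null array 1 and the red square of null array 2 lie apart.

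Mrps9 encodes the counterpart of bacterial S9, whose tail reaches the peptidyl tRNA in the decoding subunit. It read 7.90, 8.27 and 7.92 on the WT arrays and 9.30 and 8.86 on the null arrays. The groups did not overlap, and the difference was 1.05 ± 0.20 (SE) on the log2 scale, 2.07-fold (limma adjusted p = 0.518). Mrps9 had 4 probe sets, of which 3 passed. The second read 7.98, 8.17 and 7.93 in WT and 8.71 and 8.67 in null HSCs, and the dimmest 3.82, 3.75 and 3.71 against 4.83 and 4.57. All 3 also passed when any 1 WT array was left out, and kept their direction without either null array. The remaining probe set read 7.06 as its WT mean and 6.95 as its null mean, with a difference of -0.11.

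Mrps22 encodes a protein of the small subunit without a bacterial counterpart, and inherited defects of the human gene cause mitochondrial disease. It read 4.48, 4.49 and 4.49 on the WT arrays and 5.15 and 5.19 on the null arrays. The null values were higher by 0.68 ± 0.02 (SE), 1.60-fold, and the adjusted p in limma was 0.0931, the lowest of the 76 genes. The probe set was dim and its WT values nearly tied, with an SD of 0.01. Mrps22 had no other probe set on the array.

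Mrps14 encodes the counterpart of bacterial S14 in the head of the small subunit. It read 9.38, 9.57 and 9.55 on the WT arrays and 10.39 and 9.85 on the null arrays, a difference of 0.62 ± 0.19 (SE), 1.53-fold (limma adjusted p = 0.808). All null values lay above all WT values, but null array 1 gave most of the distance. The other probe sets of Mrps14 went the other way, with differences of -0.27 and -0.08, neither of which passed. Without WT array 1, 2 or 3 the difference was 0.56, 0.65 or 0.64, none of which passed. Without null array 1 it was 0.35 and without null array 2 it was 0.89. It also no longer passed with array weights, at 0.55, or as the mean of its probe sets, at 0.09. By contrast, Mrps9 and Mrps22 passed without any 1 WT array. Without null array 1 or 2 the difference was 0.83 or 1.27 for Mrps9 and 0.70 or 0.66 for Mrps22, each from 1 null array. With the replicate number as a block, Mrps22 passed and Mrps9 did not.

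Mrpl40, a protein of the large subunit found in mitochondria alone, had the second largest difference and just missed the p criterion. It read 6.35, 6.34 and 6.41 in WT and 7.51 and 6.72 in null HSCs, higher by 0.75 ± 0.27 (SE) with an unadjusted limma p of 0.0511. Its null arrays lay 0.35 and 1.14 above the WT mean when taken singly. Mrps28, a relative of bacterial S1, read 8.61, 8.18 and 8.35 in WT and 9.19 and 8.63 in null HSCs, a difference of 0.53 that did not pass. Here the lower null array lay only just above the highest WT array. Mrpl13, the counterpart of bacterial L13, read 7.76, 7.74 and 7.56 against 8.41 and 8.01, a difference of 0.52 with a limma p of 0.0296 that was short of the fold. All 4 of its probe sets differed in the same direction, by 0.28 to 0.52.

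Of the other genes with positive differences, Mrpl41 differed by 0.44 and Mrps31 by 0.44, and neither passed. Mrps31 and Mrpl34 are the only ones of the 76 on the chromosome of Atxn1l itself, and Mrpl34 differed by 0.04. Among those of the 8 with a low p and a positive difference not yet described, Mrpl58, which frees peptides from stalled ribosomes, differed by 0.42, Mrpl22 by 0.29, Mrps21 by 0.28 and Mrps35 by 0.28, all short of the fold. Mrpl52 illustrates a difference under the fold that recurred, since its 3 bright probe sets differed by 0.37, 0.35 and 0.40.

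**Figure D2:**
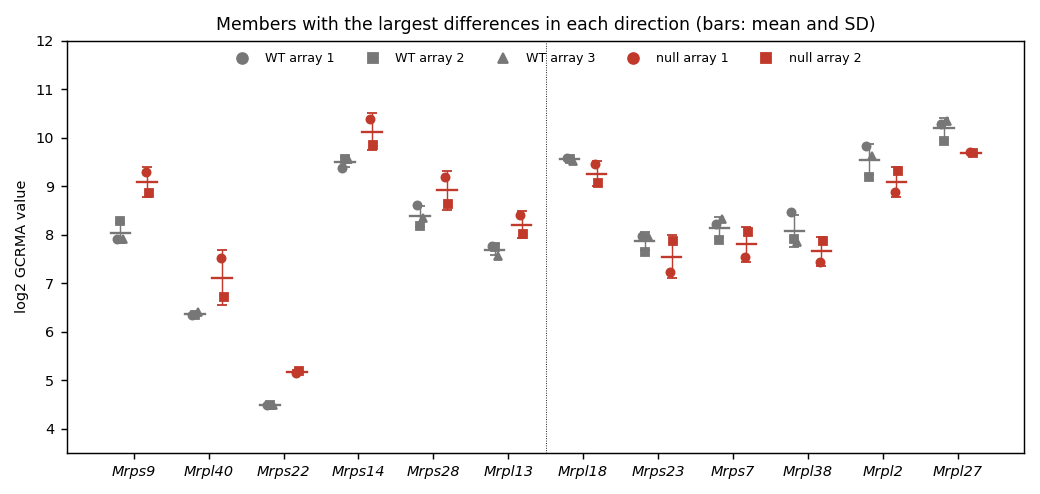
Log2 values by array for the 6 genes with the largest positive and the 6 with the largest negative difference among the brighter members, with horizontal bars for the genotype mean and error bars for the SD over 3 WT or 2 null arrays. Mrps9, Mrps22 and Mrps14 are the genes that passed, all left of the dotted line, and none to its right did.

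In the lower direction the largest difference was that of Mrpl27, the counterpart of bacterial L27, which reaches toward the peptidyl transferase center. It read 10.28, 9.94 and 10.34 on the WT arrays and 9.70 and 9.67 on the null arrays, -0.50 ± 0.14 (SE) with a limma p of 0.0288. The groups did not overlap, and the difference was short of the fold with all arrays. Without WT array 2 it was -0.62 and passed. Mrpl2, whose bacterial counterpart is needed to join the subunits, read 9.82, 9.19 and 9.62 against 8.88 and 9.31, so that the genotypes overlapped. The values of Mrpl38 were 8.46, 7.91 and 7.85 against 7.44 and 7.87, and those of Mrps7, which nucleates the head of the small subunit, 8.22, 7.90 and 8.32 against 7.54 and 8.06. Both overlapped as well. Mrps23 differed by -0.32, Mrpl18 by -0.29, Mrps12, whose bacterial counterpart sits at the decoding site, by -0.28, and Mrpl39 by -0.28, none of which passed. Mrpl46 differed by only -0.10, but its WT values of 8.41, 8.42 and 8.38 were so close that the limma p was 0.0398. Mrps11, which starts back to back with it, differed by -0.14 and did not pass.

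Where a gene had several probe sets they did not always go together. Of the 76 genes, 34 had a single probe set and 42 had 2 or more, with 8 at the most for Mrpl15. In 24 genes at least 2 probe sets read a mean of 5 or more, and in 16 of these 24 all such probe sets differed in the same direction. A dimmer probe set passed in 3 genes whose brightest did not. For Mrps23, a protein found in mitochondria alone, it read 8.14, 7.41 and 8.33 in WT and 6.46 and 7.15 in null HSCs, -1.15 ± 0.39 (SE), and all 3 of its probe sets differed in that direction. It passed without WT array 2 and in no other fit that left out an array, with differences from -1.50 to -0.81 over the others. For Mrpl21, the dimmer read 6.15, 5.96 and 5.66 against 4.74 and 4.88, -1.11 ± 0.17 (SE), and passed without any 1 array, while the brightest differed by 0.11. For Mrpl49 the dimmer read 4.19, 4.53 and 4.35 against 4.90 and 5.10, higher by 0.65, while the brightest differed by -0.07. It no longer passed without WT array 1, at 0.56, or without null array 2, at 0.55. Which transcripts these probe sets read was not examined.

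**Figure D3:**
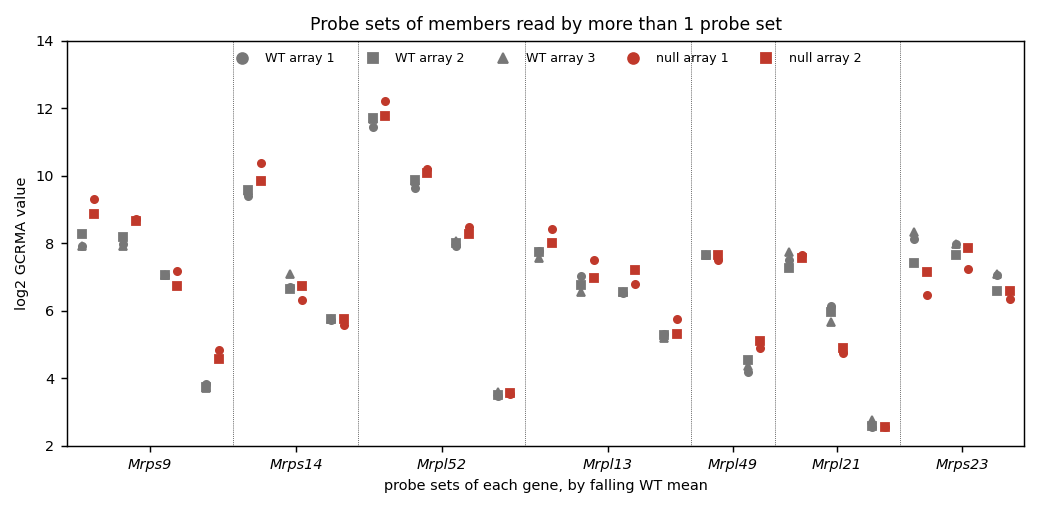
Log2 values by array for every probe set of 7 genes with several, with WT arrays in gray and null arrays in red and the probe sets of a gene side by side between dotted lines. For Mrps9, 3 probe sets separate the genotypes in the same direction, whereas those of Mrps14, Mrpl21 and Mrpl49 disagree.

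The subunits were then set side by side. Of the 49 genes of the large subunit, 30 had a positive difference, 0 passed and 16 lay within 0.1 of no difference, with a median difference of 0.04 and a range from -0.50 to 0.75. Of the 26 genes of the small subunit, 15 had a positive difference, 3 passed as higher and 5 lay within 0.1, with a median of 0.20 and a range from -0.35 to 1.05. The same median was -0.00186 over all 18193 genes and 0.02 over the 7236 brighter genes, of which 52.7% had a positive difference. With the probe sets of each gene averaged, the order changed, with medians of 0.0753 in the large and 0.0538 in the small subunit. The difference between the subunits was not tested. Genes listed with a bacterial counterpart had medians of 0.04 in the large and 0.17 in the small subunit. Genes listed as found in mitochondria alone had medians of 0.06 and 0.24. Mrps18a and Mrps18b were listed there although they are relatives of bacterial S18. The 3 relatives of bacterial S18, which sit in different places of the ribosome, read differences of 0.06 for Mrps18a, 0.37 for Mrps18b and 0.43 for Mrps18c, none of which passed. Mrps30 differed by 0.12 and Mrps36 by 0.05.

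Both null arrays lay above all WT arrays in 17 of the 76 genes, or 22.4%, and below all of them in 5, or 6.58%. The background was 9.14% above and 8.35% below over all genes, and 18.4% above and 15.4% below over the brighter genes. Of the 71 brighter members the shares were 23.9% and 7.04%. Mrps22 and Mrps35, both among the 17, counted as brighter only through their null means. The small subunit gave 9 of the 17 and 1 of the 5. Set beside the brighter genes, the share above differed little and the share below was the lower one, and neither was tested.

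**Figure D4:**
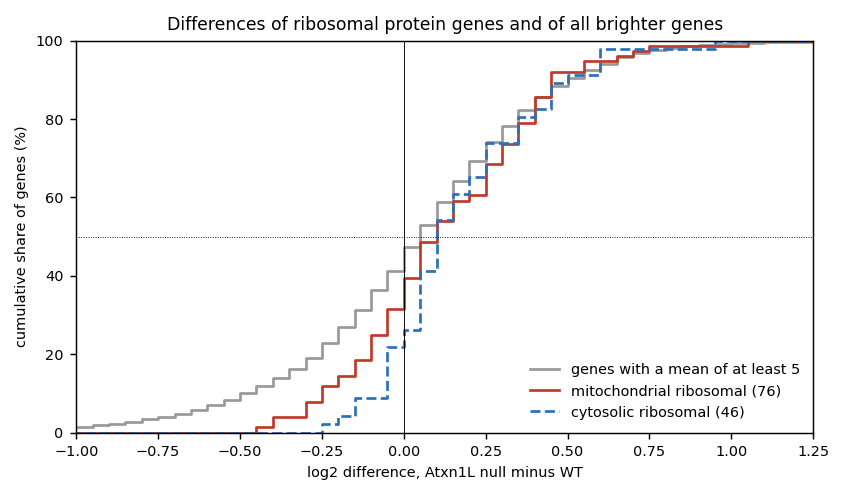
Cumulative share of genes in percent against the log2 difference of Atxn1L null minus WT, in steps of 0.05, for the 76 mitochondrial ribosomal genes in red, 46 cytosolic ribosomal genes in dashed blue and the 7236 brighter genes in gray. Both ribosomal curves start to rise later than the gray curve, so they hold fewer genes with large negative differences, and run close to it beyond 0.3.

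The null arrays were not alike. Null array 1 held the highest value in 37 of the 76 genes and null array 2 in 11, while WT array 1 held the lowest in 24. Null array 1 lay above null array 2 in 49 genes and below it in 26. The distance between the null arrays exceeded the difference between the genotypes in 50 of the 76 genes, with medians of 0.25 and 0.22. A distance between 2 single arrays varies more than a difference between means. This count therefore does not show by itself how unlike the null arrays were. The small subunit genes deviated from their own means over 5 arrays by a median of 0.21 on null array 1 and 0.02 on null array 2, and the large subunit genes by 0.09 and 0.00398. Without null array 2, the median difference of the small subunit was 0.26, and without null array 1 that median was 0.00929. Mrpl12, which forms the stalk that calls in elongation factors, shows the split most plainly, at 6.92, 6.92 and 6.82 on the WT arrays and 7.37 and 6.22 on the null arrays.

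**Figure D5:**
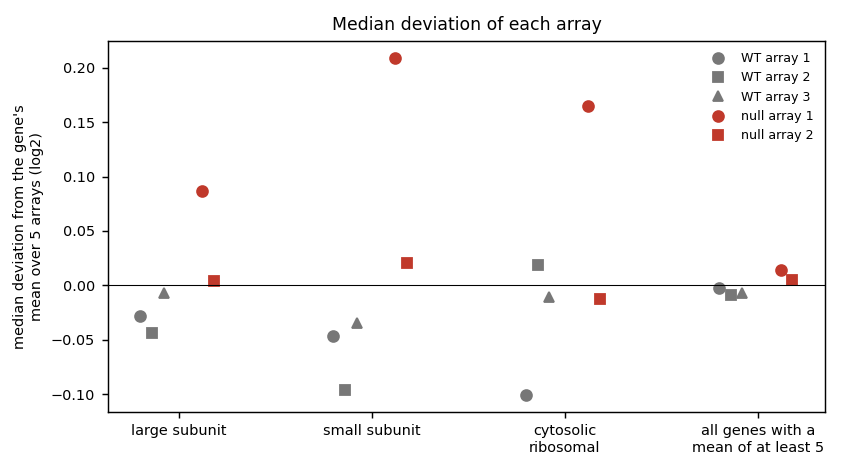
Median deviation of each array from the mean of each gene over the 5 arrays, in log2 units, for the large subunit, the small subunit, the cytosolic ribosomal genes and all brighter genes. Null array 1 lies at 0.21 for the small subunit and 0.17 for the cytosolic genes, while null array 2 lies close to the WT arrays in both.

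Other genes of mitochondrial translation were read from lists written from general knowledge. Beside them, 1.57% of all genes passed as higher and 1.43% as lower, and 3.496% and 3.441% of the brighter genes. Of 11 translation factors, 1 passed as higher and 0 as lower. This was Mtif2, which brings the initiator tRNA to the small subunit, at 5.86, 5.61 and 5.88 in WT and 6.42 and 6.42 in null HSCs, a difference of 0.64 ± 0.10 (SE; limma adjusted p = 0.425). Both null values were above all WT values, and without WT array 2 the difference was 0.55, under the fold. Of 19 genes for mitochondrial DNA transcription and RNA maturation, 1 passed as higher and 0 as lower. This was Pnpt1, the polynucleotide phosphorylase of mitochondria, at 6.91, 6.81 and 7.14 against 7.46 and 7.73, a difference of 0.64 ± 0.15 (SE). It no longer passed without WT array 1, WT array 2 or null array 2, at 0.62, 0.57 and 0.50. Of the 19 aminoacyl-tRNA synthetases and amidotransferase subunits of mitochondria, 0 passed in either direction, and the brightest, Qrsl1, differed by -0.37. Of 25 ribosome assembly factors, 0 passed, and the helicase gene Dhx30, the brightest, differed by -0.05. The 4 mitochondrial ribosomal proteins under other symbols with a probe set were Chchd1, Dap3, Ptcd3 and Gadd45gip1, with differences of 0.33, -0.16, 0.47 and 0.13, and 0 passed. The medians of these lists lay between -0.02 for assembly and 0.23 for the ribosomal proteins under other symbols. Differences were positive in 6 of the 11 translation factors and in 11 of the 19 transcription and maturation genes. They were positive in 13 of the 19 synthetases and amidotransferase subunits, but in 9 of the 25 assembly factors. In that order, the lowest differences were -0.55, -0.45, -0.37 and -0.80, and the highest 0.64, 0.64, 0.52 and 0.47.

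The proteins of the cytosolic ribosome, which translates the imported proteins themselves, were represented by 46 genes. None passed, 34 of them, or 73.9%, had a positive difference, and the median was 0.09. Null array 1 deviated by a median of 0.17 and null array 2 by -0.01 in these genes, so that the split between the null arrays was not particular to the mitochondrial ribosome.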

How the data were processed

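RNA of pooled, sorted HSCs of WT (n = 3) and Atxn1L null (n = 2) mice was hybridised to MOE430 2.0 arrays after linear amplification. The deposited values are log2 values that the authors computed with GCRMA, version not given in the sources used here, for 45101 probe sets. The log base was inferred from the range of the values. Genotypes were taken from the sample labels. Replicates are called biological by the study, but their mice are not identified, so p-values measure the spread between these arrays. Their number limits the precision.

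After 64 control probe sets were left out, limma 3.58.1 (R 4.3.3) was used to fit the genotype means (lmFit, eBayes), with 3 residual and 0.771 prior degrees of freedom. Genes were named from the platform annotation, and 4 probe sets shared between a member and another gene were left out, so that Mrpl30 and Mrpl53 had none. Scripts were tested on simulated data.

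The members and all lists were chosen with earlier results of these data known, so no list was tested. Genes were named by rule: every passing member, the 4 brightest and 3 dimmest of each subunit, the 8 largest differences in each direction among members with a mean of at least 5, those without overlap and a difference of at least 0.5, those passing on a dimmer probe set, Mrpl12, Mrps12, Mrps18a, Mrps18b, Mrps18c, Mrps30 and Mrps36, and, of other mitochondrial lists, the passing genes or else the brightest. Members named beyond it were chosen after their values were seen. Alternatives were another variance prior, array weights, renewed quantile normalization, median centring, probe set filters, other criteria, a replicate block and fits without 1 array. A fit without a null array leaves 1 null array and so no spread among null arrays.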

Additional observations from a re-analysis of the deposited data

Results flagged for a closer look

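A probe set that the comparison did not use gave a signal in null HSCs above that in the WT controls. It is annotated to both Mrpl30, a large subunit gene without a probe set of its own, and Gm6238, and so could not be assigned to either. It read 10.92, 11.43 and 11.11 on the WT arrays and 11.88 and 11.47 on the null arrays, a difference of 0.52 ± 0.22 (SE) with an unadjusted limma p of 0.0817. The lower null array lay only just above the highest WT array. A second probe set annotated to the same genes was dim, with means of 2.675 in WT and 2.658 in null HSCs and a difference of -0.02. The other shared probe sets left out differed by 0.09 (Nme3 and Mrps34) and -0.27 (Ccdc142 and Mrpl53).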

How the results depend on the processing

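With all 5 arrays, 3 members passed as higher and 0 as lower. Array weights gave 5 as higher (Mrps9, Mrps22, Mrps28, Mrpl40 and Mrpl54) and 1 at an adjusted p under 0.05, Mrps22. The p criterion with no fold gave 8 as higher and 2 as lower. Leaving out probe sets of the types open to cross-hybridization gave 1 as lower, Mrps23. Counting any probe set of a gene gave 2 as lower, Mrps23 and Mrpl21, and added Mrpl49 as higher, by 0.65. Leaving out 1 array at a time gave 2 to 11 as higher, 0 to 2 as lower and 0 to 4 at an adjusted p under 0.05, the highest counts each without null array 2. Median differences then ran from 0.0294 to 0.149 for all members, 0.00249 to 0.0918 for the large subunit and 0.00929 to 0.263 for the small subunit, with the highest again without null array 2. The mean of all probe sets of a gene brought the small subunit median to 0.0538, below the 0.0753 of the large subunit. It brought the difference of Mrps14 to 0.09, which did not pass. Mrpl40 passed with a variance trend and robust estimation, with array weights, with renewed quantile normalization, among probe sets with a mean of at least 5 and with probe sets averaged. The adjusted p of Mrps22 ranged from 0.0122 to 0.563 over these settings. The medians and the differences of Mrps9, Mrps14 and Mrps22 kept their direction in every fit. Among the other named members, none of which passed with all 5 arrays on its brightest probe set, the difference changed sign to -0.36 for Mrpl21 and 0.29 for Mrpl49 with probe sets averaged and to 0.0690 for Mrps6 with array weights and with the replicate block. Leaving out 1 array at a time, it crossed 0 for Mrpl10 (-0.81 to 0.16), Mrpl12 (-0.66 to 0.48), Mrpl21 (-0.0133 to 0.23), Mrpl24 (-0.15 to 0.17), Mrpl51 (-0.14 to 0.15), Mrps6 (-0.25 to 0.20), Mrps23 (-0.63 to 0.000291), Mrps30 (-0.00307 to 0.25) and Mrps33 (-0.00457 to 0.39).

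With the replicate number as a block, 1 member passed as higher, Mrps22, and 0 as lower. The block leaves out WT array 3, which has no partner. The deviations of same-numbered arrays correlated at -0.05 and -0.30, so the numbers are not read as pairs.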
